A study of Mus musculus with 31 samples.

Results

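Ubb, Uba1, Zfand2a, Zfand2b, Zfand5, Ubqln1, Ubqln2 and Rad23b, which are 8 genes of the ubiquitin system, were followed in ribosome-protected fragments (RPFs) and total RNA of squamous cell carcinoma (SCC) cells exposed to a proteasome inhibitor. They were taken by name, from a list made with earlier results of these data known, and their rows were found by Entrez identifier among the 20704 genes of the RPF table and the 24593 genes of the total RNA table. All 8 members were present in both tables and passed the filter on low counts in both, where 9457 genes were tested in RPF and 11708 in total RNA. Cells were mouse skin SCC keratinocytes whose labels give the genotype HRasG12V:TgfbrIIfl/fl, and all groups also carry eGFP. The paper instead lists both lines as HRasG12V TgfbrII D/D, and calls HRasG12V keratinocytes with TgfbrII fl/fl pre-oncogenic. Which genotype holds was not tested. Every group lacks endogenous Eif2s1, the gene of the translation initiation factor eIF2α, and expresses in its place a myc-tagged Eif2s1 transgene driven by the PGK promoter. In S51 cells the transgene is wild type and the integrated stress response (ISR) can act through its phosphorylation, whereas in S51A cells the phosphorylated serine is replaced by alanine and the ISR is null. The lines were single-cell clones, and which clone gave which library is not named. Each line was treated for 4.5 h with DMSO as vehicle or with 100 nM bortezomib. The 16 total RNA libraries were 4 per group. Of the 15 RPF libraries, 3 were of S51 cells with vehicle, and each remaining group had 4.

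Ubiquitin is a small protein that is attached to other proteins by a relay of enzymes, and chains of it mark proteins for the proteasome, which bortezomib inhibits. Ubb encodes head-to-tail repeats of ubiquitin, whereas a gene such as Rps27a encodes a single ubiquitin fused to a ribosomal protein. Uba1 is the main E1 enzyme, which activates ubiquitin for the whole relay. Zfand2a, Zfand2b and Zfand5 carry AN1-type zinc fingers and associate with the proteasome or with p97, the segregase that unfolds ubiquitinated proteins. Zfand2a is known as an arsenite-inducible protein, Zfand2b is its membrane-anchored relative, and Zfand5 is known from muscle wasting. Ubqln1, Ubqln2 and Rad23b are shuttle factors, with a ubiquitin-like domain that binds the proteasome and a domain that binds ubiquitin. Rad23b also takes part in the recognition of DNA damage.

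RPF library totals on genes ran from 1038826 to 4902237 and total RNA totals from 18758668 to 22994713, so that low footprint counts carry the larger error. RPFs of the S51 vehicle replicate 2 had the lowest mean correlation with the rest of its group (0.9493, against 0.9668 to 0.9882 for the other RPF libraries). The chi-square per gene between its counts and those of replicates 1 and 3 was 13.2 and 18.4. All RPF pairs without this library were at 5.01 or below. It is part of the vehicle level in every S51 comparison with vehicle in RPF and in the ratio. All 8 keratinocyte and SCC markers were expressed above the filter, with a summed level of 26500 to 38300 CPM (counts scaled to a common library total) over the RPF libraries and 13600 to 19800 CPM over the total RNA libraries. Summed fibroblast markers reached at most 9.99 CPM in RPF and 6.94 CPM in total RNA, with Col1a2 and Dcn at 0, and summed immune markers at most 17.4 and 7.37 CPM, with Cd3e at 0. The labels of S51 bortezomib and S51A vehicle samples were exchanged by the submitters after deposition, and the corrected labels were used here. Eif2s1 was counted in every group, at group means of 138 to 231 CPM in RPF and 287 to 310 CPM in total RNA, but these counts cannot separate the wild-type from the S51A transgene.

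The sequence of Ubb decides how well its reads can be placed. Ubb lies at chr11:62551171-62553213 on the plus strand of GRCm38 in 2 exons, and its RefSeq coding sequence holds 4 ubiquitin units of 228 bases (76 residues), which are 95.6% to 99.1% identical to each other in pairs. The first 60 bases of each unit are shown, since they make plain why a footprint of about 28 bases can rarely be assigned to a single place, and capitals mark the 3 positions at which the units differ.
Ubb unit 1, chr11:62552146-62552205: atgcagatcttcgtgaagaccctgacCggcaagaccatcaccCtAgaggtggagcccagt
Ubb unit 2, chr11:62552374-62552433: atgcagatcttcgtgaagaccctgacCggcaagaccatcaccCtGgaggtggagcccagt
Ubb unit 3, chr11:62552602-62552661: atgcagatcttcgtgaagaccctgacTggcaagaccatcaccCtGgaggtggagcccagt
Ubb unit 4, chr11:62552830-62552889: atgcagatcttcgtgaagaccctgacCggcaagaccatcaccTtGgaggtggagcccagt

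Of the 831 windows of 28 bases in the counted coding sequence of Ubb, 44 (5.3%) occurred once in the genome. Rps27a had 0 of 384. Its single ubiquitin unit is 80.7% identical to the first unit of Ubb, and the 243 bases after that unit gave no unique window either. The counts of both genes in RPF are therefore uncertain in their assignment among copies. In Ubb, unique footprints can come from a small part of the gene, and in Rps27a no window of this length was unique although counts were deposited for it. In total RNA, where windows of 100 bases over the whole transcript were examined, 38.8% were unique in Ubb and 36.1% in Rps27a. The other members were better placed. The share of 28-base windows found more than once was 22.3% in Zfand5 and at most 1.2% in Uba1, Zfand2a, Zfand2b, Ubqln1, Ubqln2 and Rad23b, and the remaining windows that were not unique spanned exon junctions.

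**Figure D1:**
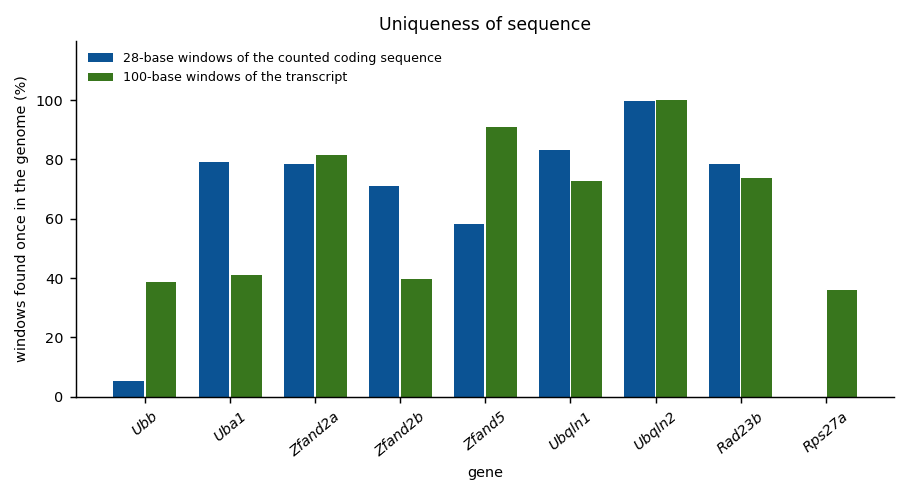
Percent of 28-base windows of the counted coding sequence (blue bars) and of 100-base windows of the transcript (green bars) found once in the genome, for the 8 members and Rps27a. The blue bar stands at 5.3% in Ubb and at 0 in Rps27a, against 58.2% to 99.6% in the other members.

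The promoters of the 4 members whose RPFs rose with bortezomib in both lines are printed because these genes moved together, as RefSeq sequences (GRCm38.p6) from 250 bases before to 50 bases after the annotated start, 5′ to 3′ on the strand of the gene. For Ubb, the more upstream of its annotated starts is shown. Capitals mark a match to the heat shock element form TTCNNGAA.
Zfand2a, chr5:139484442-139484741, minus strand: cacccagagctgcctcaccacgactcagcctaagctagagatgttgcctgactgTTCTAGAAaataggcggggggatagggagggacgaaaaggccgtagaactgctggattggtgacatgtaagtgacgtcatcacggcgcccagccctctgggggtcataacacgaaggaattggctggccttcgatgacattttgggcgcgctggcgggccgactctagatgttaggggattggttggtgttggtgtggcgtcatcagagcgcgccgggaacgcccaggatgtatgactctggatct
Ubb, chr11:62550921-62551220, plus strand: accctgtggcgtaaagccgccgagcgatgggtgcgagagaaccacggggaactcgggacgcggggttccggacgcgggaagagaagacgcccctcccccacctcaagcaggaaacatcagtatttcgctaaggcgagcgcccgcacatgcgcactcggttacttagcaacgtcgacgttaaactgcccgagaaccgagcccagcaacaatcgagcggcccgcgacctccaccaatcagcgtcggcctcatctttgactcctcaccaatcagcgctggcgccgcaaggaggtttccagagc
Zfand5, chr19:21272028-21272327, plus strand: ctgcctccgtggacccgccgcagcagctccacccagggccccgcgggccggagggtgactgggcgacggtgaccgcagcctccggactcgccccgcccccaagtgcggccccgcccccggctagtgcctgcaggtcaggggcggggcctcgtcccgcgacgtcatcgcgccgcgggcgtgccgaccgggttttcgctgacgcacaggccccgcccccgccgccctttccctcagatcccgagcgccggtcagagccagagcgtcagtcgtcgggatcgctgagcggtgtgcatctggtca
Ubqln1, chr13:58215604-58215903, minus strand: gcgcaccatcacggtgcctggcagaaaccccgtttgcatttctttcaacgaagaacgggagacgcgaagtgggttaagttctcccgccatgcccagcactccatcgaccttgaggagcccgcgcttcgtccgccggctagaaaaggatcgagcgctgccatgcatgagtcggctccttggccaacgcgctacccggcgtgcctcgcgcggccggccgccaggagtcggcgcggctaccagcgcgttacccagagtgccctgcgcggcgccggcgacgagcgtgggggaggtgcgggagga

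Promoter sequences were found for 7 of the 8 members, and both strands were searched. A heat shock element, in the form GAANNTTC or TTCNNGAA, occurred in 15.1% of the 32851 promoters of the table and, among the members, in Zfand2a alone, 196 bases before the start. The cAMP response element TGACGTCA, found in 1.8% of promoters, occurred in Zfand2a and Zfand2b. The antioxidant response element TGACNNNGC, found in 12.4%, occurred in Zfand5 at 2 positions and near the other annotated start of Ubb. CCAAT, found in 37.4%, occurred in Zfand2a, Ubb, Rad23b and Uba1. The amino acid response element TGATGCAA, found in 0.9%, occurred in none of these windows.

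Bortezomib was compared with vehicle within each line to ask which members change with proteasome inhibition, with and without a working ISR. A gene was called when its adjusted p was below 0.05 and its fold above 1.5 in RPF or in the RPF to total RNA comparison, or above 2 in total RNA. Levels are relative to all reads of a library, and in such bulk samples fewer cells of a type and less RNA per cell cannot be told apart. In RPF, 4 of the 8 members rose in S51 cells, Zfand2a, Zfand5, Ubb and Ubqln1, where 7.38% of all genes tested were called higher, and these 4 rose in S51A cells as well, where 4.19% were called higher. No member was called lower in either line by edgeR or by DESeq2, and none had a lower value at an unadjusted p below 0.05, while 11.2% and 6.67% of all genes were called lower. In total RNA, Zfand2a, Zfand5 and Ubb rose in both lines, with 1.96% and 1.63% of all genes called higher. The median log2 fold change of the members was 0.59 in S51 RPF, 0.50 in S51A RPF, 0.66 in S51 total RNA and 0.49 in S51A total RNA, beside medians over all genes of 0.00, −0.01, −0.01 and −0.01.

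**Figure D2:**
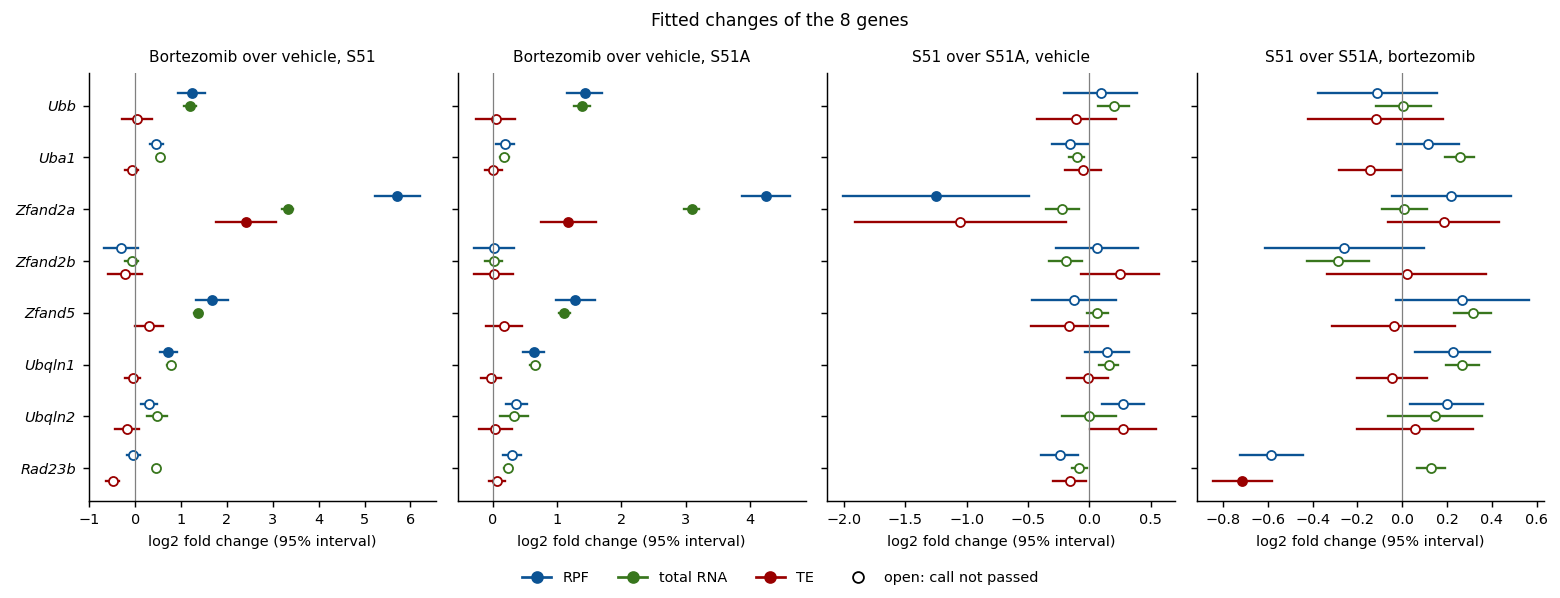
Fitted log2 fold changes (points) of the 8 members with 95% confidence intervals (lines) for bortezomib over vehicle in each line and for S51 over S51A with each treatment, in RPF, total RNA and their ratio (TE), with filled points where a call was made and axes that differ between panels. Zfand2a lies farthest to the right in bortezomib over vehicle, at 5.72 in S51 and 4.25 in S51A RPF, and Rad23b lies at −0.72 for the ratio in S51 over S51A under bortezomib.

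Ubb, the polyubiquitin gene among the members, rose about equally in footprints and in RNA. Its RPF level in S51 cells was 218, 253 and 227 CPM with vehicle and 452, 620, 496 and 617 CPM with bortezomib. In S51A cells it was 238, 235, 216 and 186 CPM with vehicle and 425, 656, 599 and 681 CPM with bortezomib. All treated libraries lay above all vehicle libraries of either line. RPFs of Ubb rose 2.34-fold in S51 (log2 1.23, SE 0.14, edgeR adjusted p = 1.28e-06) and 2.70-fold in S51A (log2 1.43, SE 0.13, edgeR adjusted p = 4.8e-08).

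Total RNA of Ubb gave 328, 316, 319 and 301 CPM in S51 vehicle libraries and 652, 758, 716 and 763 CPM after bortezomib. S51A libraries held 307, 274, 265 and 257 CPM with vehicle and 650, 791, 669 and 769 CPM with bortezomib. The ranges with and without the inhibitor were again apart in both lines. The RNA rose 2.29-fold in S51 (log2 1.19, edgeR adjusted p = 2.6e-14) and 2.61-fold in S51A (log2 1.38, edgeR adjusted p = 2.29e-15).

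Rps27a, in which ubiquitin is fused to a ribosomal protein, moved otherwise than Ubb. It fell in S51 RPF, from a mean of 1360 CPM ± 512 (SD, n = 3), with libraries spread from 767 to 1700 CPM, to 748 ± 48.8 (SD, n = 4), a log2 difference of −0.86 (edgeR adjusted p = 6.36e-04). The groups overlapped, as the lowest vehicle library lay within the range of the bortezomib libraries, 686 to 800 CPM. Fits that leave out single libraries covered the members alone, so none is given for Rps27a. In S51A RPF it gave 1650 CPM ± 88.1 with vehicle and 1140 ± 190 with bortezomib (SD, n = 4 each), a log2 difference of −0.54 (edgeR adjusted p = 0.0189) that did not reach the fold set for a call. Total RNA of Rps27a differed by 0.18 in S51 and 0.30 in S51A on the log2 scale, neither past the fold for a call. With bortezomib, its RPFs were lower in S51 than in S51A (log2 −0.60, edgeR adjusted p = 0.00663).

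RPF to total RNA ratios were tested as the difference between the response in RPF and in total RNA in a single model over all 31 libraries. This ratio fell for Rps27a in both lines (log2 −1.05 and −0.84, edgeR adjusted p = 8.49e-05 and 0.00266), where 4.24% of all genes were called lower in S51 and 0.902% in S51A. That of Ubb was not called in either line. As none of the 28-base windows of Rps27a was unique in the genome, how its footprints were assigned bears on these values and was not tested.

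Uba1, the E1 enzyme, differed with bortezomib by less than the folds set for a call. In S51 RPF libraries it gave 689, 651 and 661 CPM with vehicle and 860, 959, 932 and 930 CPM with bortezomib. S51A RPF libraries gave 700, 751, 740 and 785 CPM and then 837, 860, 806 and 896 CPM. Treated and vehicle libraries did not overlap in either line, and the gap was wider in S51. The fold was 1.38 in S51 (log2 0.46, SE 0.07, edgeR adjusted p = 4.87e-05) and 1.14 in S51A (log2 0.19, SE 0.07, edgeR adjusted p = 0.0444).

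In total RNA, Uba1 stood at 303, 294, 296 and 300 CPM in S51 with vehicle and at 410, 448, 439 and 441 CPM with bortezomib, a 1.46-fold difference (edgeR adjusted p = 2.05e-13). In S51A it stood at 320, 315, 321 and 327 CPM and at 368, 366, 356 and 365 CPM, a log2 difference of 0.18 (edgeR adjusted p = 2.13e-05). The RNA response was larger in S51 by 0.36 on the log2 scale (SE 0.04, edgeR adjusted p = 3.64e-06 for the difference), which is under the 2-fold minimum. The ratio of RPF to total RNA CPM lay between 2.10 and 2.45 in every library.

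Zfand2a, the arsenite-inducible AN1 protein, had the largest fold of the members in both lines and in both kinds of library. In S51 RPF it was close to absent with vehicle, at 1.06, 2.42 and 1.74 CPM from 3, 5 and 7 reads, and reached 94.6, 114, 83.2 and 78.4 CPM with bortezomib. S51A vehicle libraries held 4.21, 3.59, 3.73 and 4.66 CPM, from 9 to 23 reads, and bortezomib libraries 87.6, 85.8, 66.6 and 72.3 CPM. Vehicle and bortezomib were separated in each line, and every S51 vehicle library lay below every S51A vehicle library.

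RPFs of Zfand2a rose 52.6-fold in S51 (log2 5.72, SE 0.24, 95% CI 5.22 to 6.22, edgeR adjusted p = 2.24e-13) and 19.0-fold in S51A (log2 4.25, SE 0.18, edgeR adjusted p = 1.99e-13). The S51 vehicle level rests on 15 reads in all, so the S51 fold is the less certain of these. In total RNA the vehicle level was well covered, at 22.0, 22.9, 20.2 and 18.9 CPM in S51 from 437 to 493 reads and at 24.1, 25.6, 25.4 and 22.6 CPM in S51A. With bortezomib it was 216, 226, 193 and 205 CPM in S51 and 216, 213, 198 and 207 CPM in S51A. The RNA rose in S51 (log2 3.32, SE 0.06, edgeR adjusted p = 2.86e-23) and in S51A (log2 3.09, SE 0.06, 8.54-fold, edgeR adjusted p = 1.01e-22).

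Footprints of Zfand2a thus increased more than its RNA. In S51 the mean ratio of RPF to total RNA CPM was 0.0801 ± 0.0294 with vehicle (SD, n = 3) and 0.439 ± 0.0501 with bortezomib (SD, n = 4). In S51A it was 0.167 ± 0.0301 with vehicle and 0.374 ± 0.0362 with bortezomib (SD, n = 4 each). By library, the ratio was 0.0482, 0.106 and 0.0861 and then 0.438, 0.504, 0.431 and 0.382 in S51. In S51A it was 0.175, 0.14, 0.147 and 0.206 and then 0.406, 0.403, 0.336 and 0.349. No vehicle library reached the lowest bortezomib library of its line.

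In the model, the ratio of Zfand2a rose 5.31-fold in S51 (log2 2.41, SE 0.32, 95% CI 1.76 to 3.06, edgeR adjusted p = 8.19e-07) and 2.25-fold in S51A (log2 1.17, SE 0.21, edgeR adjusted p = 0.000349). It was the only member whose ratio was called in these comparisons, where 1.04% and 0.0849% of all genes were called higher. Even so, its ratio in CPM stayed under that of most genes. This rank depends on length, as the counted coding sequence takes 456 of the 3106 bases of its transcript. Per kilobase of these lengths, S51 bortezomib libraries averaged 203 CPM in RPF and 67.6 CPM in total RNA. Among about 9420 genes with a ratio it ranked 9381 from the top in S51 vehicle and 9269 in S51A vehicle, and 7763 and 8338 with bortezomib, in CPM not corrected for length.

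**Figure D3:**
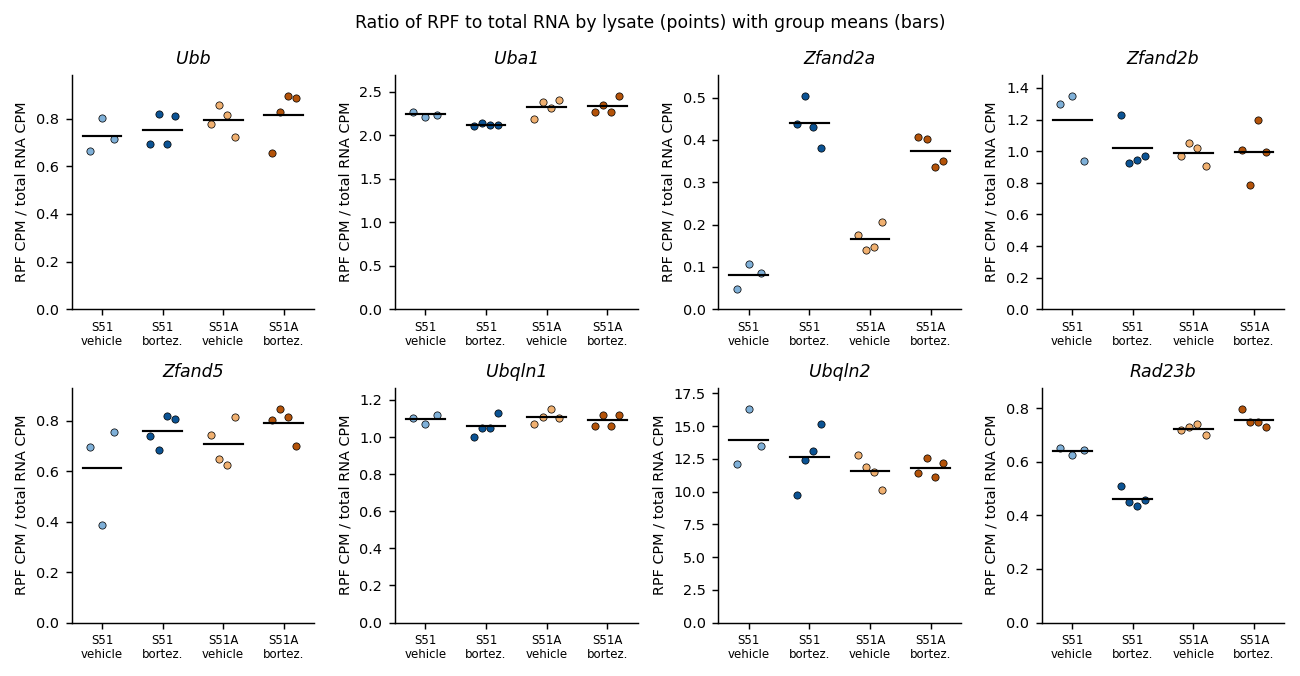
Ratio of RPF CPM to total RNA CPM of each member in each of the 15 lysates with both libraries, with a point per library and a bar at the group mean, on axes that differ between genes. Zfand2a lies between 0.0482 and 0.206 with vehicle and between 0.336 and 0.504 with bortezomib, and Rad23b is lowest in S51 cells with bortezomib, between 0.434 and 0.509.

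Zfand5, the AN1 protein known from muscle wasting, rose in footprints and RNA of both lines. In S51 RPF it went from 78.6, 42.5 and 88.1 CPM with vehicle to 219, 197, 249 and 240 CPM with bortezomib. In S51A RPF it went from 86.0, 71.2, 69.3 and 84.6 CPM to 206, 197, 191 and 162 CPM. The low vehicle value of 42.5 CPM came from the library with the lowest correlation in its group, and all treated libraries exceeded all vehicle libraries. The rise was 3.19-fold in S51 (log2 1.67, SE 0.17, edgeR adjusted p = 9.47e-08) and 2.43-fold in S51A (log2 1.28, SE 0.15, edgeR adjusted p = 1.32e-06). Without that library the S51 value was 1.45 and still called.

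Total RNA of Zfand5 was steadier between replicates, at 113, 110, 117 and 121 CPM in S51 vehicle, 297, 289, 305 and 298 CPM in S51 bortezomib, 116, 110, 111 and 104 CPM in S51A vehicle and 257, 233, 235 and 231 CPM in S51A bortezomib. It rose 2.58-fold in S51 (log2 1.37, edgeR adjusted p = 1.02e-18) and 2.16-fold in S51A (log2 1.11, edgeR adjusted p = 6.98e-17). The S51 response was larger by 0.25 on the log2 scale (edgeR adjusted p = 0.00277 for the difference), under the 2-fold minimum. With library sizes not corrected by TMM, the S51A rise was 0.999, just under 2-fold.

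Zfand2b, the membrane-anchored relative of Zfand2a, was not called in any comparison. Its RPF level was 30.1, 33.8 and 23.9 CPM in S51 vehicle and 28.4, 22.0, 19.7 and 24.6 CPM in S51 bortezomib, with overlapping ranges. S51A gave 27.1, 29.6, 31.1 and 23.1 CPM and then 27.1, 23.9, 33.3 and 27.9 CPM. The RPF difference was −0.30 in S51 (95% CI −0.67 to 0.07, edgeR adjusted p = 0.211) and 0.02 in S51A (95% CI −0.30 to 0.34, edgeR adjusted p = 0.949), which leaves room for a modest change. Its total RNA stayed between 20.8 and 25.4 CPM over the 8 S51 libraries and between 25.5 and 30.6 CPM over the 8 S51A libraries.

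Of the other AN1-type genes, Zfand1 fell in RPF in both lines (log2 −1.19 and −0.999, edgeR adjusted p = 0.0112 and 0.0294). Its total RNA differed by −0.33 and −0.42, past the adjusted p and not past the 2-fold minimum. Zfand3 and Zfand6 were not called, with RPF values of −0.06 and 0.36 in S51 and 0.17 and 0.14 in S51A, and Zfand4 was too low in RPF to be tested. The family of 7 genes thus gave 2 genes higher and 1 lower of 6 tested in RPF of each line. Of all genes in RPF, 7.38% were called higher and 11.2% lower in S51, and 4.19% and 6.67% in S51A. In total RNA of each line, 2 of 7 tested were higher and 0 were called lower by edgeR, while 1 was lower at an unadjusted p below 0.05. Among all genes, 1.96% were called higher there in S51 and 1.63% in S51A.

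**Figure D4:**
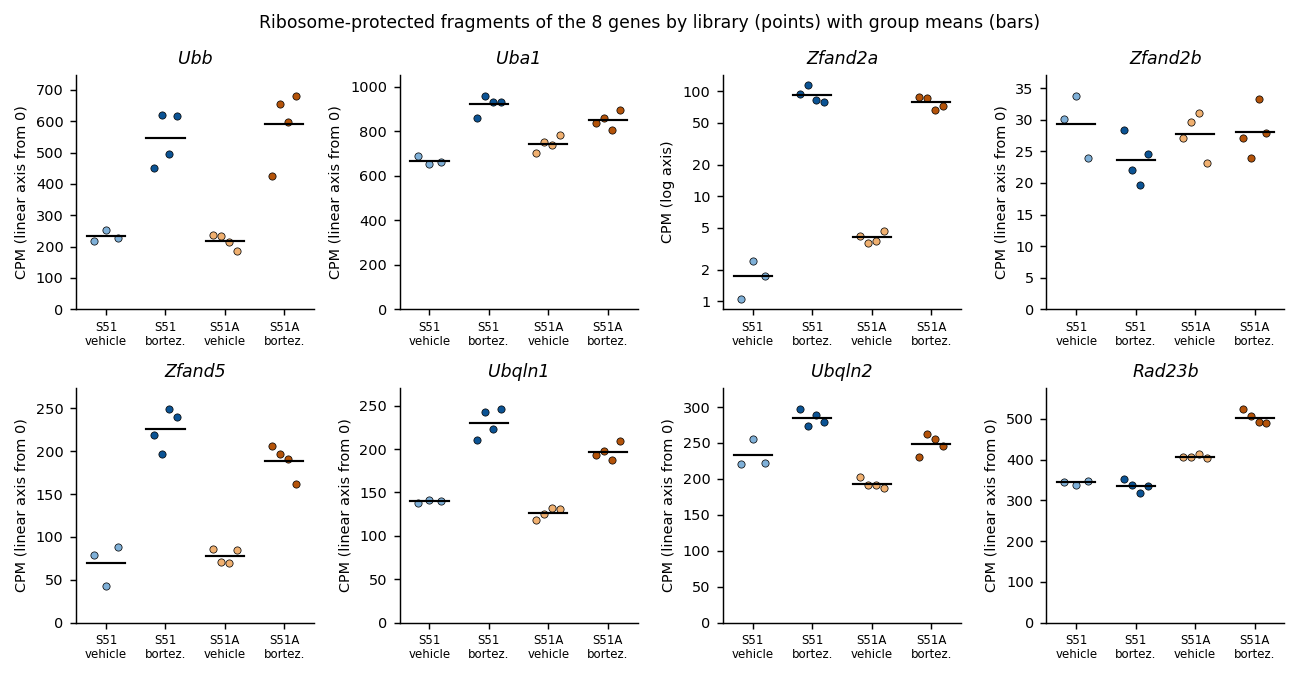
RPF levels in CPM of the 8 members in the 15 RPF libraries, with a point per library and a bar at the group mean, on axes that differ between genes and start at 0, except for the log axis of Zfand2a. In each line, bortezomib libraries lie above its vehicle libraries for Ubb, Uba1, Zfand2a, Zfand5, Ubqln1 and Ubqln2, and for Rad23b in S51A cells.

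Ubqln1, a ubiquilin shuttle, rose in RPF in both lines. S51 libraries were at 138, 141 and 140 CPM with vehicle and at 210, 243, 223 and 246 CPM with bortezomib. S51A libraries were at 118, 125, 132 and 131 CPM and at 193, 198, 187 and 209 CPM. The groups did not overlap, and the folds were 1.65 in S51 (log2 0.72, SE 0.09, edgeR adjusted p = 2.17e-06) and 1.55 in S51A (log2 0.64, SE 0.08, edgeR adjusted p = 4.91e-06). Total RNA moved by a similar amount, from 125 to 132 CPM up to 210 to 231 CPM in S51 and from 110 to 119 CPM up to 177 to 186 CPM in S51A. These folds of 1.71 and 1.58 (edgeR adjusted p = 5.93e-15 and 1.82e-13) were under the 2-fold minimum for total RNA, and with a minimum of 1.5 Ubqln1 was called in both lines.

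Ubqln2, an intronless ubiquilin gene linked to inherited motor neuron disease, stood out by its level in RPF relative to RNA. Its RPFs were 221, 255 and 222 CPM in S51 vehicle and 297, 274, 289 and 279 CPM in S51 bortezomib, and 202, 191, 191 and 187 CPM and then 230, 263, 255 and 246 CPM in S51A. Every treated library exceeded the vehicle libraries of its line, by 1.23-fold in S51 and 1.29-fold in S51A (edgeR adjusted p = 0.0115 and 0.00153), under the fold for a call. Total RNA held only 331 to 606 reads per library, at 18.3, 15.6, 16.4 and 16.5 CPM in S51 vehicle, 30.5, 22.1, 22.0 and 18.4 CPM in S51 bortezomib, 15.8, 16, 16.6 and 18.6 CPM in S51A vehicle and 20.1, 20.9, 23 and 20.1 CPM in S51A bortezomib. The spread of the S51 bortezomib group was widened by replicate 1. The log2 differences were 0.48 in S51 and 0.33 in S51A (edgeR adjusted p = 3e-04 and 0.0102).

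Rad23b, the shuttle with a role in DNA repair, was not called in RPF with bortezomib in either line. Its RPFs in S51 were 346, 339 and 348 CPM with vehicle and 353, 339, 317 and 336 CPM with bortezomib, which overlapped. In S51A they were 407, 407, 413 and 404 CPM with vehicle and 524, 507, 493 and 489 CPM with bortezomib, which did not. The fitted difference was −0.04 in S51 (95% CI −0.19 to 0.11, edgeR adjusted p = 0.733) and 0.30 in S51A (SE 0.07, edgeR adjusted p = 0.00198), the latter a 1.23-fold difference and so not called.

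Rad23b RNA, by contrast, was higher with bortezomib in S51, at 531, 542, 540 and 519 CPM and then 694, 754, 731 and 735 CPM (1.37-fold, edgeR adjusted p = 3.75e-12). In S51A it was 565, 558, 558 and 576 CPM and then 658, 679, 660 and 669 CPM (log2 0.24, edgeR adjusted p = 2.7e-07). The ratio of RPF to total RNA in S51 was therefore lower with bortezomib, at 0.509, 0.45, 0.434 and 0.457 against 0.652, 0.625 and 0.644 with vehicle (log2 −0.49, SE 0.07, edgeR adjusted p = 1.53e-06), a fold of 0.711 that is not past 1.5. In S51A the ratio was 0.72, 0.729, 0.74 and 0.701 and then 0.796, 0.747, 0.747 and 0.731 (log2 0.06, edgeR adjusted p = 1).

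**Figure D5:**
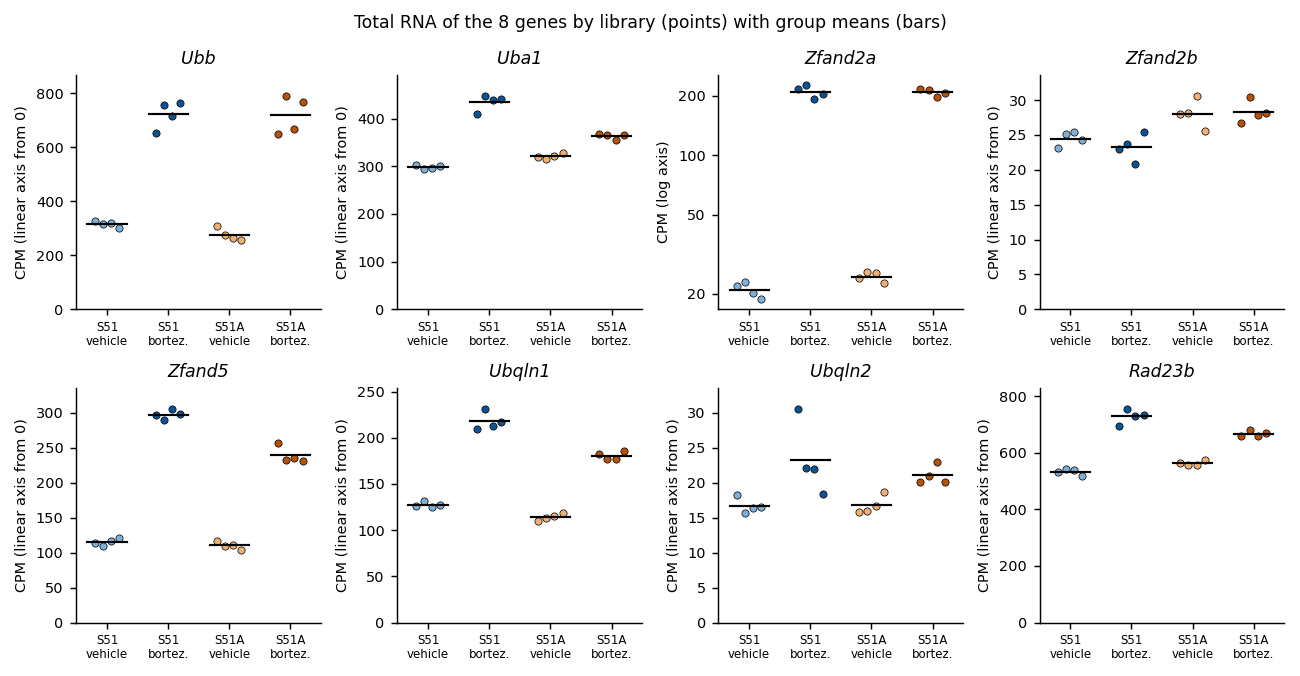
Total RNA levels in CPM of the 8 members in the 16 total RNA libraries, with a point per library and a bar at the group mean, on axes that differ between genes and start at 0, except for the log axis of Zfand2a. All members but Zfand2b lie higher with bortezomib than with vehicle in both lines with no overlap.

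By overlap alone, 6 members in S51 and 7 in S51A had all RPF values of bortezomib above all those of vehicle, where 15.8% and 13.5% of all genes did so. In total RNA 7 members did so in each line, where 26.8% and 24.3% of all genes did. Rad23b made the difference between the lines in RPF, and Zfand2b was the exception in total RNA.

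The lines were then compared directly, to ask whether members differed with the ISR state. Since the lines are single-cell clones and the clone of each library is not named, genotype and clone cannot be told apart in these comparisons. With vehicle, Zfand2a was the member called in RPF, lower in S51 than in S51A (log2 −1.25, SE 0.36, edgeR adjusted p = 0.013), where 9.19% of all genes were called lower. Without the S51 vehicle replicate 1 this call was lost (edgeR adjusted p = 0.0627). RPFs of Rad23b differed by −0.24 and those of Ubqln2 by 0.27 (edgeR adjusted p = 0.0142 and 0.0181), neither past the fold. In total RNA none of the 8 was called by edgeR or DESeq2, although 6 had an unadjusted p below 0.05 (67% of all genes did), and the values ran from −0.22 for Zfand2a to 0.20 for Ubb on the log2 scale, where 7.87% of all genes were called. The ratio gave 0 calls among the members by edgeR and by DESeq2, with 3 at an unadjusted p below 0.05 (14.7% of all genes), and few genes of the table were called at all (0.0849%).

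With bortezomib, the RPF to total RNA ratio of Rad23b was lower in S51 than in S51A (log2 −0.72, SE 0.07, 95% CI −0.85 to −0.58, fold 0.609, edgeR adjusted p = 1.24e-09), where 2.53% of all genes were called lower. The ratios of the 4 S51 libraries, up to 0.509, lay below those of the 4 S51A libraries, from 0.731. In RPF alone the difference of Rad23b was −0.58 (SE 0.07, edgeR adjusted p = 1.09e-06), a fold of 0.667 that sat at the 1.5-fold boundary without passing it. Leaving out S51 vehicle replicate 2, S51 bortezomib replicate 1 or 2, or S51A bortezomib replicate 3 or 4 brought it past. No member was called in RPF by edgeR or by DESeq2, with 3 at an unadjusted p below 0.05 (41.5% of all genes), where 17.7% of all genes were called. Zfand2a, which differed with vehicle, gave 0.22 in RPF with bortezomib (95% CI −0.05 to 0.48, edgeR adjusted p = 0.205). Total RNA gave 0 member calls by edgeR and by DESeq2, with 5 at an unadjusted p below 0.05 (68.2% of all genes), where 8.28% of all genes were called.

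Whether the response to bortezomib itself differed between the lines was tested as the interaction of line and treatment. The RPF response of Zfand2a was larger in S51 by 1.47 on the log2 scale (SE 0.38, 95% CI 0.67 to 2.27, 2.77-fold, edgeR adjusted p = 0.0444), where 0.878% of all genes were called higher. This call was lost when any of 12 of the 15 RPF libraries was left out, with values from 1.24 to 1.66 and adjusted p from 0.0241 to 0.125. It held without S51 vehicle replicate 2, S51 bortezomib replicate 4 or S51A bortezomib replicate 1. For the ratio the corresponding value was 1.24 (95% CI 0.34 to 2.13, edgeR adjusted p = 0.178). The S51 vehicle level in both values rests on 3 to 7 footprints per library.

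For Rad23b, the response of the ratio differed between lines by −0.55 (SE 0.09, edgeR adjusted p = 0.000618), which is a fold of 0.681 and not past 1.5. Its RPF response differed by −0.34 (edgeR adjusted p = 0.0705) and its total RNA response by 0.21 (edgeR adjusted p = 0.000898), in opposite directions. In total RNA, the response difference of Zfand2a was 0.23 (edgeR adjusted p = 0.0464). Neither total RNA nor the ratio gave a member call for the response difference by edgeR or DESeq2, with 6 and 2 members at an unadjusted p below 0.05 (34% and 12% of all genes), where 0.478% and 1.29% of all genes were called. RPF response differences of the other members were not called, with 0.39 for Zfand5, 0.27 for Uba1 and −0.20 for Ubb (edgeR adjusted p = 0.397, 0.159 and 0.643).

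Levels between genes were compared as RPKM (CPM per kilobase), over the counted coding length in RPF and the transcript length in total RNA. In S51 vehicle RPF the order was Rad23b at 289 RPKM ± 3.97 (SD, n = 3), Ubb at 271 ± 21.2, Uba1 at 202 ± 5.97, Ubqln2 at 125 ± 10.4, Zfand5 at 120 ± 41.3, Ubqln1 at 82.7 ± 0.904, Zfand2b at 41.0 ± 7.01 and Zfand2a at 3.82 ± 1.49. The neighbours Rad23b and Ubb, Ubqln2 and Zfand5, and Zfand5 and Ubqln1 lay within their spread. This order depends on the length used, since only uniquely mapped reads were kept. A level per unique window takes every counted read to come from such windows. Rps27a was counted although it had 0 unique windows, so the level of Ubb by this measure is uncertain. Per kilobase of unique 28-base windows, RPFs of Ubb stood first at 5290 CPM ± 413, from only 44 windows, followed by Rad23b at 377 ± 5.18, Uba1 at 258 ± 7.62, Zfand5 at 216 ± 74.5, Ubqln2 at 128 ± 10.6 and, after Ubqln1 and Zfand2b, Zfand2a at 5.16 ± 2.02. With bortezomib in S51 the order of RPF levels became Ubb at 637 RPKM ± 99.5 (SD, n = 4), Zfand5 at 389 ± 39.9, Rad23b at 282 ± 12.4, Uba1 at 279 ± 12.8, Zfand2a at 203 ± 34.7, Ubqln2 at 153 ± 5.53, Ubqln1 at 136 ± 10.1 and Zfand2b at 33.2 ± 5.23, with Rad23b and Uba1 within their spread.

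S51A RPF levels followed a like order, from Rad23b at 342 RPKM ± 3.17 down to Zfand2a at 8.88 ± 1.07 with vehicle (SD, n = 4), and from Ubb at 688 ± 134 down to Zfand2b at 39.3 ± 5.47 with bortezomib. Zfand2a thus passed from the lowest of the 8 members to above Ubqln2, Ubqln1 and Zfand2b in both lines, at 171 RPKM ± 22.5 in S51A with bortezomib. Per kilobase of unique windows it passed the same genes, at 275 CPM ± 47.0 in S51 and 232 ± 30.4 in S51A. In total RNA of S51 vehicle, Ubb was highest at 211 RPKM ± 7.49 (SD, n = 4), followed by Rad23b at 140 ± 2.75 and Uba1 at 73.3 ± 0.991, and Zfand2a at 6.76 ± 0.578 and Ubqln2 at 5.01 ± 0.342 were lowest. With bortezomib in S51, total RNA of Ubb reached 482 RPKM ± 34.3 and that of Zfand2a 67.6 ± 4.58, while Ubqln2 remained lowest at 6.98 ± 1.54.

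The ISR acts on translation initiation, and ATGs in the leader, the stretch of transcript before the coding sequence, are known to affect initiation, so the RefSeq leaders of the members were read. Of 19113 genes with a leader, 48.2% held at least 1 upstream ATG and 40.6% a closed upstream reading frame, with a median leader of 149 bases. Zfand2a held 4 upstream ATGs in a leader of 267 bases, all of closed frames, Rad23b 2 in 320 bases and Ubb 1 in 431 bases. Uba1, Zfand2b, Zfand5, Ubqln1 and Ubqln2 held 0, in leaders of 45 to 474 bases. Reads within leaders were not part of the counts, so no initiation at these ATGs was measured.

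Related genes of the same routes were counted beside the members. Uba6, the other E1 that can activate ubiquitin, gave 0.55 in S51 RPF (edgeR adjusted p = 0.0388), not past the fold for a call, and 0.12 in S51A RPF. Of the shuttle factors 6 of 10 were tested, and Ubqln1 was the one called with bortezomib in RPF of each line. Of all genes, 7.38% were called higher in S51 RPF and 4.19% in S51A RPF. Ubqln4, a further ubiquilin, gave −0.21 in S51 and 0.12 in S51A in RPF. Ddi2, a shuttle and protease, was higher in S51 than in S51A with vehicle in RPF (log2 0.61, edgeR adjusted p = 0.00301). In that comparison 6.62% of all genes were called higher. As for Rps27a, no fit that leaves out a single library is given for Ddi2.

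Among p97 and its cofactors, 6 of the 19 genes tested rose in RPF in each line, and 0 were called lower by edgeR or lower at an unadjusted p below 0.05. They were Vcp, which is p97 itself (log2 1.06 in S51 and 0.72 in S51A), its core adaptors Nploc4 (0.92 and 0.99) and Ufd1 (0.92 and 0.97), the cofactor Nsfl1c (0.74 and 0.74), and the endoplasmic reticulum proteins Ubxn4 (1.13 and 1.01) and Selenos (0.88 and 0.78). Of all genes, 7.38% were called higher and 11.2% lower in S51 RPF, and 4.19% and 6.67% in S51A RPF. The median of the 19 was 0.41 in S51 and 0.16 in S51A. Total RNA called Nploc4 and Ufd1 in S51 (log2 1.07 and 1.06) and Nploc4 in S51A (1.02). Of the 13 heat shock genes listed, 11 rose in S51 RPF and 12 in S51A RPF, with medians of 1.77 and 1.89, beside the same shares of all genes.

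Genes whose log2 CPM followed a member most closely are given as a description over libraries that fall into vehicle and bortezomib groups, so that any gene that responds strongly will score high. Over the 16 total RNA libraries, Zfand2a was most like Hspa1b, an inducible heat shock protein (Pearson r = 0.9967), and also like Trp53inp1, Pmaip1 and Gabarapl1 (0.9949). Ubb was most like Cpped1 (0.9949), Pmm1, Psma1 and Ccng1 (0.99), and Zfand5 was most like Mdm2 (0.9954), Adrm1, Ufd1, Cdkn1a and Polk (0.9905). Uba1 was most like Kif18b (0.9795), Mdm4, Tubb5, Dync1h1 and Bag6 (0.9757). Over the 15 RPF libraries, Zfand2a was most like Tnfrsf10b (0.9918), Pgd, Hspa1b, Btg2 and Psmc5 (0.984), and Ubb was most like Psmc4 (0.9863), Bag3, Tnk1 and Dedd2 (0.9718).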

How the data were processed

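RPFs (15 libraries) and total RNA (16 libraries) of S51 and S51A cells were sequenced. The authors deposited whole-number read counts per gene, not normalized, in 1 table for each kind of library. The methods name FastX for trimming, bowtie2 for alignment to mm10 and plastid for counting, with RPFs counted within coding sequences without the 15 codons after the start and the 5 before the end. Column names add that rRNA was removed, duplicates were marked, repeats masked and uniquely mapped reads kept. The submitters' processing notes name Bowtie2, featureCounts and DESeq2. How near-identical ubiquitin units were masked is not given in the sources used here. Depletion of rRNA was done on pools of up to 8 RPF libraries.

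Tests used edgeR 4.0.16 in R 4.3.3 (TMM library sizes, genes kept by filterByExpr with a minimum count of 10 and a total of 15, quasi-likelihood test, Benjamini-Hochberg adjustment over all genes tested), 1 fit per kind of library over the 4 groups. The ratio was tested as the interaction of library kind and group over 31 libraries (9424 genes). This fit held no term for RPF and total RNA libraries that came from the same lysate. An alternative fit, the lysate block, lets such libraries correlate, and their consensus correlation was 0.115. Calls needed an adjusted p below 0.05 and a fold above 1.5 (RPF, ratio) or 2 (total RNA). Alternatives used DESeq2 1.42.0 and limma 3.58.1, and the fits were tested on simulated data. Replicates are described both as technical and as biological, so p-values measure only the spread between these samples, which may be technical. No replicates were the same library deposited again, as the chi-square per gene was at least 1.66 over 21 RPF pairs and 2.78 over 24 total RNA pairs. Replicate numbers were not taken as pairing samples.

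The 8 members, the gene lists and the rule for named genes were chosen with earlier results of these data known. The text names the members, genes of their small families, called genes of the lists, and genes among the 5 most like each of 4 members. Some genes of the lists are not reported here. Sequences and coordinates are from RefSeq GRCm38.p6, the assembly behind mm10, and windows of counted coding sequence were searched in that genome. The tables were used in full.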

Additional observations from a re-analysis of the deposited data

Results flagged for a closer look

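Among 56 groups of 4 libraries tested for a library far from the others, counting each member in each kind of library, 1 was singled out (1.8%), where chance gives about 1 in 20. It was Zfand5 in total RNA of S51A bortezomib, where replicate 1 gave 257 CPM and the nearest of the others 235 CPM. This is a gap of 0.846 of the range of the group, which ran from 231 to 257 CPM.

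In 6 cases a member's response to bortezomib differed between S51 and S51A by the test of the difference itself, at an adjusted p below 0.05 and whatever the fold. Of all genes, 2.35% passed that test in RPF, 21.6% in total RNA and 1.72% in the ratio, so that 4 of the 6 cases lie where such differences were common. The RPF response of Zfand2a differed by 1.47 on the log2 scale (S51 minus S51A). In total RNA, the response differed by 0.36 for Uba1, 0.25 for Zfand5, 0.23 for Zfand2a and 0.21 for Rad23b, all larger in S51. The response of the RPF to total RNA ratio of Rad23b differed by −0.55. Of these, only that of Zfand2a in RPF was past the fold set for a call, and it was lost without any of 12 of the 15 RPF libraries.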

How the results depend on the processing

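In RPF, total RNA and the ratio, the number of members called was the same under DESeq2, RLE normalization, library sizes alone, no filter on low counts, only the groups compared and the lysate block, each where it was run, except that library sizes alone gave 2 in S51A total RNA, from 3. With a fold minimum of 1.5 in total RNA it went from 3 to 4 in each line (Ubqln1 joined). Over all members and comparisons, 759 of 776 values kept their direction and their side of the threshold, and 2 came past it (Ubqln1 in total RNA). The call lost with library sizes alone was Zfand5 (0.999, from 1.11). The reversed values were small and belong to members not called. With library sizes alone these were, in S51A, Zfand2b in RPF (−0.00694) and total RNA (−0.1), in S51 over S51A under bortezomib in total RNA Ubb (−0.0489) and Zfand2a (−0.0442), and in the ratio Uba1 (0.0748) and Ubqln1 (0.1) in S51, Ubqln1 in S51A (0.0616), Ubqln1 with vehicle (0.0178), Zfand5 (0.0632) and Ubqln1 (0.0564) with bortezomib, and Ubb (0.0529) and Ubqln1 (0.0386) in the response difference. With DESeq2, Ubqln2 in total RNA with vehicle became 0.00185. The cause was not tested. Leaving out 1 library changed 3 counts of members called, all in RPF, each between 0 and 1: S51 over S51A with vehicle, the same with bortezomib, and the response difference. It lost 13 calls of single members and added 5 among 2480 values, and 66 values of members not called changed sign. Their ranges in RPF were −0.0391 to 0.25 (Zfand2b) and −0.293 to 0.11 (Zfand5) with vehicle and −0.0711 to 0.0924 in S51A (Zfand2b). In total RNA they were −0.0286 to 0.0592 in S51A (Zfand2b), −0.0496 to 0.0496 with vehicle (Ubqln2), −0.0407 to 0.0535 (Ubb), −0.00947 to 0.244 (Ubqln2) and −0.0261 to 0.0503 (Zfand2a) with bortezomib, and −0.00426 to 0.25 for the response difference (Ubqln2). In the ratio they were −0.0292 to 0.116 in S51 (Ubb) and, in S51A, −0.0167 to 0.0367 (Uba1), −0.0299 to 0.183 (Ubb), −0.0142 to 0.0842 (Ubqln2) and −0.0913 to 0.0782 (Zfand2b). Between lines the ratio ranged over −0.0419 to 0.0192 (Ubqln1) and −0.339 to 0.0495 (Zfand5) with vehicle, −0.0427 to 0.211 (Ubqln2), −0.0677 to 0.139 (Zfand2b) and −0.108 to 0.0141 (Zfand5) with bortezomib, and −0.145 to 0.0671 (Ubb), −0.0636 to 0.00912 (Ubqln1) and −0.0811 to 0.323 (Zfand5) for the response difference. The values of Zfand5 that turned with vehicle were those without S51 vehicle replicate 2 in RPF.

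The replicate number as a block changed no member call. Deviations of same-numbered libraries correlated at −0.158 to 0.261 over 21 RPF pairs (median 0.033, against −0.022 for different numbers). In total RNA they correlated at 0.002 to 0.191 over 24 pairs (median 0.092, 8 over 0.1), above the 72 pairs of different number (−0.167 to 0.099, median −0.034). As not every same-numbered pair was over 0.1, a cut set here, the numbers were not taken as pairing. The main fits in total RNA thus hold no term for what same-numbered libraries share. Under this replicate block Zfand2a gave 1.48 (edgeR adjusted p = 0.0309) for the RPF response difference, and Ubqln1 in the ratio with vehicle turned from −0.02 to 0.0193.

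Counts over all genes moved by more than 1.5 times in a few settings. A fold minimum of 1.5 gave 1790, 1535, 2053, 2337 and 245 calls in total RNA for S51, S51A, vehicle, bortezomib and the response difference, against 584, 489, 922, 970 and 56, and DESeq2 gave 31 for the last. For the ratio with vehicle, 8 calls became 28 with DESeq2, 21 with the lysate block and 0 with only the groups compared (edgeR, where 988 genes had an unadjusted p below 0.05), and 122 in the response difference became 210 with DESeq2. Library sizes alone shifted the median of all genes by up to 0.161 (log2) and moved the share of calls that were higher from 39.4% to 21.8% (S51) and from 39.1% to 26.5% (S51A) in total RNA. In the ratio this share moved from 19.7% to 61.5% in S51, from 17.9% to 47.2% between lines with bortezomib and from 16.4% to 37.8% for the response difference. Depth limits Zfand2a with vehicle in RPF, at 3 to 23 reads per library.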

Other observations

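Ubqln2 was measured at a high footprint level on little RNA in every group. The ratio of its mean RPF CPM to its mean total RNA CPM was 13.9 with vehicle and 12.2 with bortezomib in S51 cells, against medians over all genes of 0.883 and 0.901. In S51A cells it was 11.5 and 11.8, against medians of 0.91 and 0.9. From the top it ranked 22 of 9420 genes with vehicle and 20 with bortezomib in S51, and 20 and 18 in S51A. Among the other members, Uba1 was next, at 2.24 in S51 vehicle. The ratio is in CPM and is not corrected for length. The coding sequence of Ubqln2 takes 1917 of the 3331 bases of its transcript, and 99.6% of its 28-base windows occurred once in the genome. Whether the RefSeq transcript is the one these cells express was not tested.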
